A study of Sus scrofa with 4 samples.

Results

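The genes described here encode the machinery that carries proteins into mitochondria, chosen by name from a transcript table of 4-cell pig embryos (Sus scrofa). The name rule covers the TIMM and TOMM families, PAM16, DNLZ, GRPEL, CHCHD4, SAMM50, metaxins 1 to 3 and the processing peptidase subunits PMPCA and PMPCB. It found 41 transcript rows of 34 genes among 25560 genes in the table, all 34 matched to RefSeq genes of the Sscrofa11.1 assembly. No row was found for PAM16, and neither it nor TIMM23, the central pore of the presequence translocase, is analysed here. The genes were sorted by role into 14 of the outer membrane, 7 small TIM chaperones with their oxidative receptor, 8 of the TIM23 translocase and its motor, 2 of the TIM22 translocase and 3 others. TOMM34, a cytosolic co-chaperone, was counted with the outer membrane genes.

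Nearly all mitochondrial proteins are made in the cytosol and cross the outer membrane through the TOM complex, a channel flanked by receptors and small stabilising subunits. Beyond it the routes part: precursors with a presequence pass TIM23 and are pulled in by an ATP-driven motor, carrier proteins are escorted by hexameric small TIM chaperones to TIM22, and beta-barrel proteins are inserted by the SAM complex with the metaxins. The early embryo lives on mitochondria stored in the egg, and import is how nuclear-encoded proteins reach them.

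RNA came from embryos injected into the cytoplasm with small interfering RNA, per the labels' protocols. There were 2 libraries of the genotype labelled Control, whose treatment is also given only as Control, and 2 of the genotype labelled TFAP2C KD, treated by siRNA injection against the transcription factor TFAP2C. How many embryos made up a library, and whether libraries came from separate pools, is not labelled, so p-values cover only the variation among these 4 libraries and that may be technical. Levels are FPKM, fragments scaled to transcript length and library size, and can be compared between genes.

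The 4 libraries had between 9238 and 9917 genes at 1 FPKM or more. Transcripts of the mitochondrial genome made up 21.7% of TPM in labelled control 1, 29.1% in labelled control 2, 45.8% in labelled knockdown 1 and 31.9% in labelled knockdown 2. The TFAP2C row does not check the labels. It was listed at 14.7 and 7.78 FPKM under labelled controls 1 and 2 and at 0.448 and 3.11 under labelled knockdowns 1 and 2. Its coverage divided by FPKM was 6.07 and 8.83 under labelled controls 1 and 2, the constants of labelled knockdowns 1 and 2 in every other row above 0, and 6.69 and 7.03 under the labelled knockdowns, the constants of the controls. By these constants the values of the row belong to the libraries of the other label. Which assignment holds was not tested. Of the 41 import rows, 3 are listed at 0 throughout, and the other 38 carried the constants of their own libraries wherever they were above 0. Directions below are labelled knockdown minus labelled control. Oocyte and early embryo markers, BTG4 and BMP15 among them, summed to 4159 and 3875 FPKM under the control label and to 2611 and 3602 under the knockdown label. Of 13 tested, 12 had negative estimates, beside 5671 of all 9850 tested genes. The 13 had a median log2 fold change of -0.41 and 0 calls (limma, 0 higher and 2 lower at an unadjusted p under 0.05). The part of these markers in the import results was not tested. For the 10 measured markers of cumulus and granulosa cells the sums were 18.8 and 11.6 FPKM under the control label against 19.5 and 9.16 under the knockdown label, with AMH and PTGS2 listed at 0 throughout. The 5 blood markers summed to at most 1.63 FPKM and the 3 sperm markers to at most 0.584, both in labelled knockdown 1.

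The import genes split rather than moving together. TIMM8A, TOMM5, TOMM20 and MTX2 were higher in the libraries labelled knockdown, with mean levels 5.24 times those of the labelled controls for MTX2 and larger multiples for the other 3, while TOMM7 and TIMM13, the most abundant subunits in the labelled controls, were not. Of the 34 genes, 24 reached a mean of 1 FPKM and were tested, 4 of them higher and 0 lower (limma on log2(FPKM + 1), Benjamini-Hochberg adjusted p under 0.05 over all 9850 tested genes). The same fit called 5.11% of all tested genes higher and 1.46% lower. At an unadjusted p under 0.05, limma gave 6 import genes higher and 2 lower, against 14% and 13.9% of all tested genes. These genes were proposed as a group with this comparison already known, TIMM8A and TOMM5 standing among its largest rises, so the counts and p-values describe them and nothing is read from their share. TIMM8A reached the minimum level only through the labelled knockdowns, and SAMM50 and TOMM6 only through the labelled controls. In 10 of the 24 both labelled knockdowns stood above both labelled controls, and in 9 both stood below, against 24.7% and 35.8% of all tested genes. The median log2 fold change of the 24 was 0.083, with 12 positive and 12 negative, beside a median of -0.13 over all tested genes. Of all 9850 tested genes, 4179 had positive and 5671 negative estimates. With either library labelled knockdown left out, limma called 0 genes anywhere in the table, and the adjusted p of the 4 import genes was between 0.0709 and 0.192 (978 and 1413 genes of the table were higher at an unadjusted p under 0.05 without labelled knockdown 1 and 2 in turn, and 811 and 1261 lower).

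**Figure D1:**
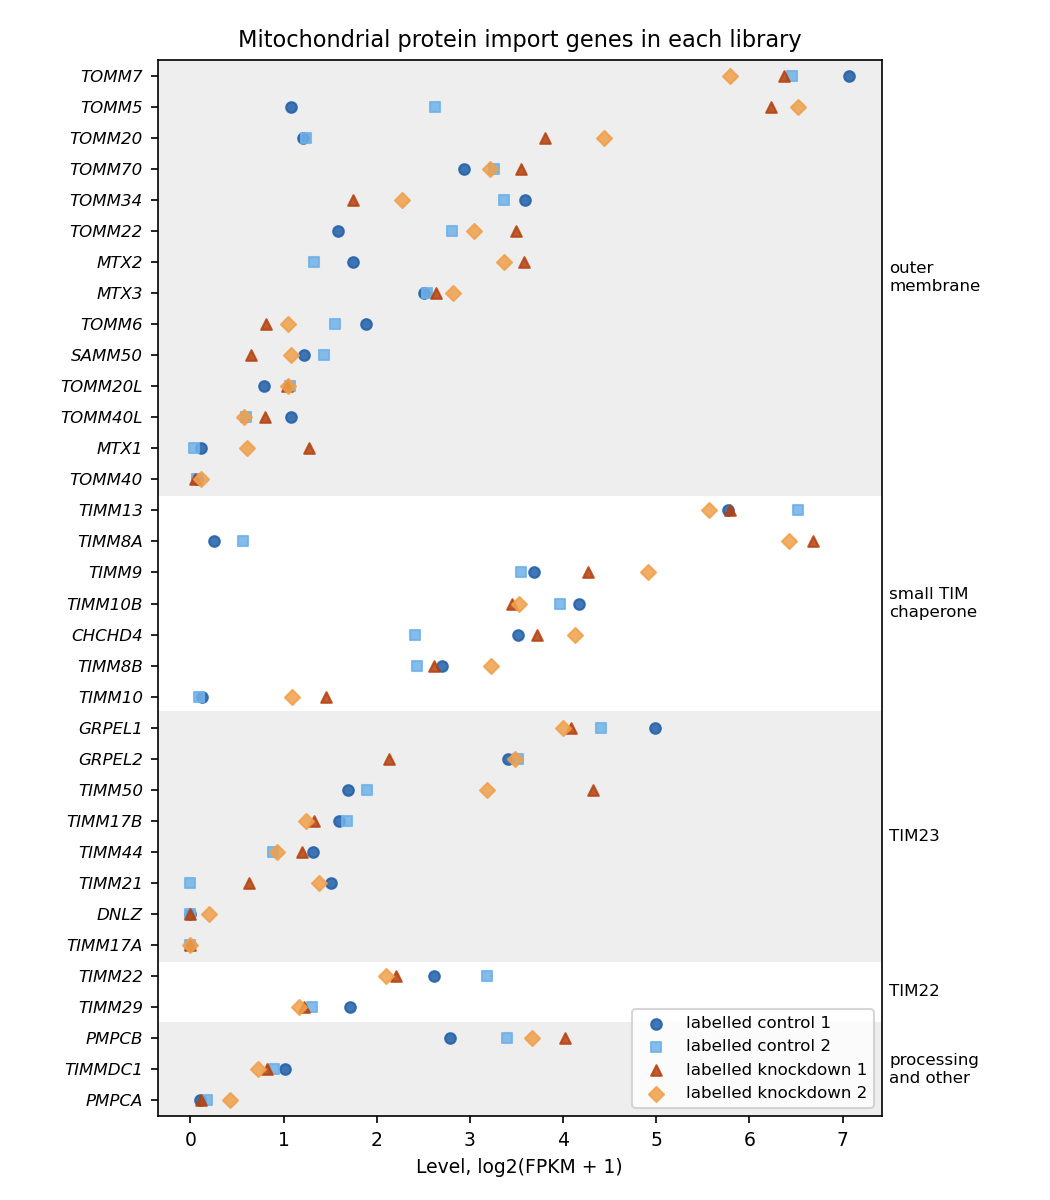
Level of each of the 34 import genes in each library, on the log2(FPKM + 1) scale, grouped by role and ordered by mean level. For TIMM8A, TOMM5 and TOMM20 the labelled knockdown points lie far to the right of the labelled control points, while TOMM7 and TIMM13 are high in all 4 libraries.

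At the outer membrane 3 of 10 tested genes were higher and 0 lower, against 5.11% and 1.46% of all tested genes. At an unadjusted p under 0.05 (limma) 3 were higher and 2 lower, against 14% and 13.9%. The genes were chosen with this comparison known, so nothing is read from the counts of any part. TOMM20, a receptor that binds presequences (gene ID 100152814, chromosome 14, 56113087 to 56127686), stood at 1.32 and 1.37 FPKM in labelled controls 1 and 2 and at 12.995 and 20.6 in labelled knockdowns 1 and 2. The groups did not overlap, and the SD was 0.039 FPKM in the controls and 5.41 in the knockdowns (n = 2 each). Its log2 fold change was 2.89 (SE 0.32, Benjamini-Hochberg adjusted p = 0.0141 by limma), place 192 of the 9850 fold changes ordered from the highest. TOMM70, the receptor for carrier precursors and their cytosolic chaperones, stood at 6.63 and 8.54 FPKM under the control label and 10.7 and 8.27 under the knockdown label, and its groups overlapped. The level of TOMM20 was thus 0.199 and 0.161 times that of TOMM70 under the control label and 1.21 and 2.50 times under the knockdown label. TOMM22, the central receptor that also organises the TOM complex, stood at 1.99 and 5.98 FPKM under the control label and at 10.3 and 7.25 under the knockdown label. Its log2 fold change of 1.08 (SE 0.46) missed the threshold (Benjamini-Hochberg adjusted p = 0.199 by limma), and its controls differed 2.999-fold from each other.

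TOMM5, a small subunit that stabilises the channel (gene ID 100520533, chromosome 1, 238328894 to 238333066), stood at 1.11 and 5.19 FPKM in labelled controls 1 and 2. In the 2 libraries labelled knockdown its level was 74.3 and 91.0 FPKM. Both knockdowns were far above both controls, which themselves differed 4.66-fold. The log2 fold change was 4.52 (SE 0.53, Benjamini-Hochberg adjusted p = 0.0154 by limma), and with the highest transcript row of each gene in place of the sum the call was lost (adjusted p = 0.0529), although TOMM5 has a single row. TOMM7, another small subunit and the most abundant outer membrane transcript on average (gene ID 100037982, chromosome 9, 91570069 to 91578991), stood at 133 and 86.6 FPKM under the control label and at 81.8 and 54.5 under the knockdown label. Its log2 fold change was -0.68 (SE 0.35) and missed the threshold (Benjamini-Hochberg adjusted p = 0.27 by limma). The level of TOMM7 was 119.8 and 16.7 times that of TOMM5 under the control label but 1.10 and 0.600 times under the knockdown label. TOMM6, the third small subunit, stood at 2.69 and 1.93 FPKM against 0.752 and 1.07. Its whole 401-base locus lies within the span of PRICKLE4, which stood at 191 to 279 FPKM, so reads of either gene may be counted for the other. Strand and exons were not compared.

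TOMM34, a cytosolic co-chaperone of import (gene ID 100157194, chromosome 17, 47352144 to 47376571), stood at 11.03 and 9.29 FPKM in labelled controls 1 and 2 and at 2.34 and 3.82 in labelled knockdowns 1 and 2, with no overlap. The log2 fold change of -1.47 (SE 0.31) lay just short of the threshold (Benjamini-Hochberg adjusted p = 0.0526 by limma), and with TPM in place of FPKM it was called lower (-1.84, or -1.44 relative to the median of all genes there, adjusted p = 0.0446). The channel itself was barely measured. TOMM40, the pore, stood at 0.0309 to 0.0779 FPKM over the 4 libraries, from 1 of the 2 transcripts that RefSeq gives it, and its paralog TOMM40L with the receptor paralog TOMM20L at 0.492 to 1.12. None of these 3 was tested. TOMM20L is measured here by 2 rows that RefSeq classes as noncoding RNA, and its locus overlaps that of TIMM9 by 10634 bases.

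In the SAM complex, MTX2, a metaxin of beta-barrel insertion (gene ID 733591, chromosome 15, 82061381 to 82139073), stood at 2.35 and 1.52 FPKM under the control label and at 10.98 and 9.28 under the knockdown label. The groups did not overlap, and the log2 fold change was 1.93 (SE 0.30, Benjamini-Hochberg adjusted p = 0.0276 by limma). The table splits MTX2 into 2 rows, and the row that holds its level changed from library to library: one row took 100% in labelled control 1, 18.3% in labelled knockdown 1 and 100% in labelled knockdown 2, and the other the rest, including 100% in labelled control 2. Only the sum of the rows is therefore comparable, and the highest row alone was not called (adjusted p = 0.342). The call was also lost without labelled control 1 (adjusted p = 0.0722) and without labelled control 2 (0.0788). MTX3, its paralog, stood at 4.67 and 4.82 FPKM against 5.20 and 6.03, and MTX1, the partner of MTX2, was too low to test, at 0.0856 and 0.0276 against 1.41 and 0.527. SAMM50, the barrel that performs the insertion, stood at 1.33 and 1.71 FPKM under the control label and at 0.567 and 1.11 under the knockdown label.

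**Figure D2:**
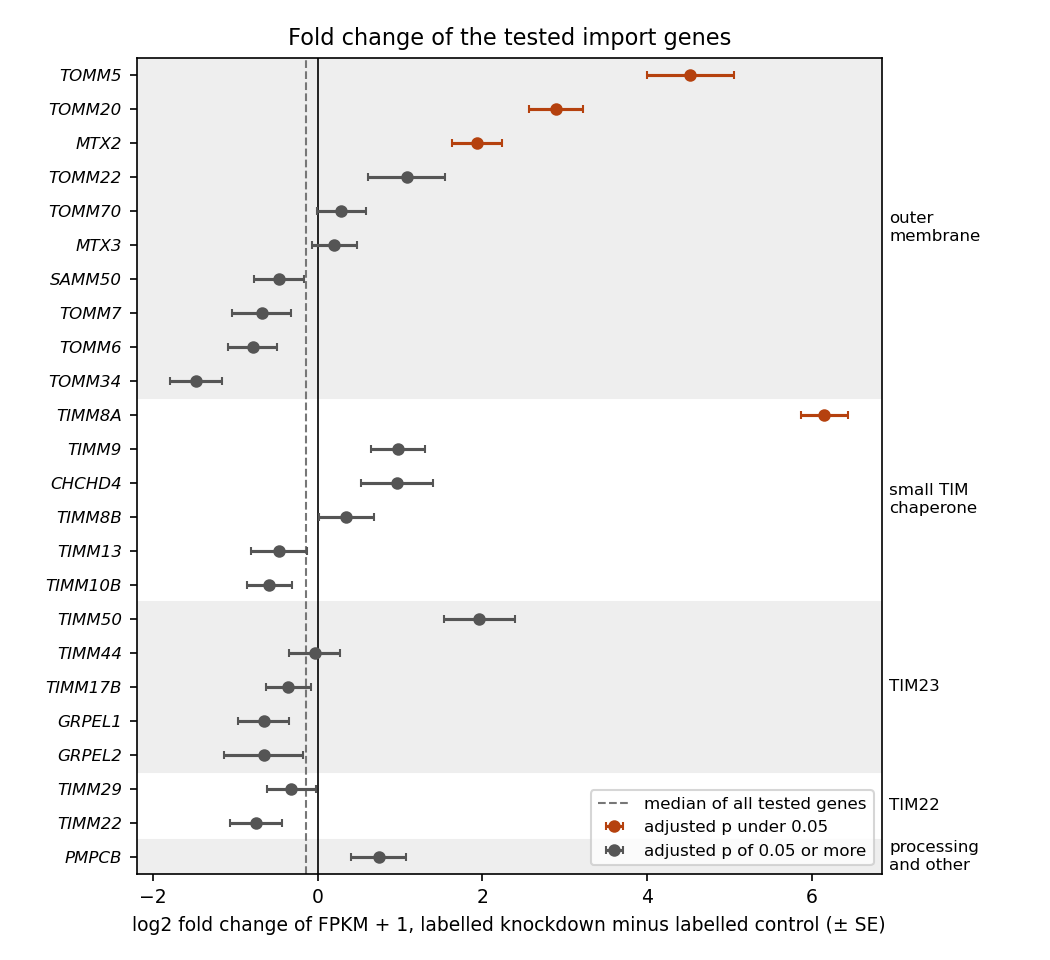
Log2 fold change of FPKM + 1, labelled knockdown minus labelled control, for the 24 tested import genes by role; points are limma estimates with SE bars, and the dashed line is the median of all tested genes at -0.13. TIMM8A, TOMM5, TOMM20 and MTX2 passed the threshold, TIMM8A having entered the fit only through the labelled knockdowns. Both TIM22 genes and 4 of 5 TIM23 genes had negative estimates short of the threshold, beside 5671 negative estimates among all 9850 tested genes.

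Among the 6 tested small TIM chaperones 2 were higher and 0 lower at an unadjusted p under 0.05 (limma), against 14% and 13.9% of all tested genes. After adjustment 1 was called higher, against 5.11% of all tested genes, and it was TIMM8A. This subunit, which forms a chaperone hexamer with TIMM13 in the intermembrane space (gene ID 100517443, chromosome X, 82978128 to 82981038), stood at 0.195 and 0.474 FPKM in labelled controls 1 and 2. In the 2 libraries labelled knockdown its level was 102 and 85.1 FPKM. The mean read depth per base behind these values was 1.30, 3.33, 619 and 752, so the control values rest on few reads. Among all tested genes its level went from above 3.93% and 3.38% of them under the control label to above 93.7% and 92.7% under the knockdown label. Its log2 fold change was 6.15 (SE 0.29), given as a description because TIMM8A entered the fit only through the group where it was high and was already known among the largest rises.

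The partner TIMM13 did not follow it. TIMM13 (gene ID 100620885, chromosome 2, 76146946 to 76148163) stood at 53.5 and 90.8 FPKM under the control label and at 54.5 and 46.3 under the knockdown label, and the groups overlapped. Its log2 fold change was -0.47 (SE 0.34, Benjamini-Hochberg adjusted p = 0.411 by limma). TIMM13 exceeded TIMM8A 275.3-fold and 191-fold under the control label. In the labelled knockdowns the order turned, and the level of TIMM8A was 1.87 and 1.84 times that of TIMM13. The close paralog TIMM8B, which is autosomal in this assembly, stood at 5.51 and 4.41 FPKM under the control label and at 5.13 and 8.33 under the knockdown label. TIMM8A therefore stood at 0.0353 and 0.107 times the level of TIMM8B in the controls and at 19.9 and 10.2 times in the knockdowns.

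The other chaperone hexamer joins TIMM9 and TIMM10. TIMM9 (gene ID 100621083, chromosome 1, 187485407 to 187504452) stood at 11.9 and 10.7 FPKM in labelled controls 1 and 2 and at 18.3 and 29.1 in labelled knockdowns 1 and 2. The groups did not overlap, and the log2 fold change was 0.98 (SE 0.32), short of the threshold (Benjamini-Hochberg adjusted p = 0.124 by limma). Its locus overlaps that of TOMM20L by 10634 bases, and 32.1% of its level in labelled knockdown 1 came from a row listed at 0 in the other 3 libraries. TIMM10 is measured here by 1 row that RefSeq classes as a long noncoding RNA, at 0.0888 and 0.0668 FPKM under the control label and 1.74 and 1.12 under the knockdown label, a mean too low to test. TIMM10B, which docks the hexamer on TIM22 in human cells, stood lower in both labelled knockdowns, at 9.92 and 10.5 FPKM against 17.0 and 14.7 (log2 fold change -0.58, SE 0.27, Benjamini-Hochberg adjusted p = 0.222 by limma). CHCHD4, the oxidoreductase that traps these cysteine-rich chaperones after they enter, stood at 10.4 and 4.30 FPKM against 12.2 and 16.5.

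**Figure D3:**
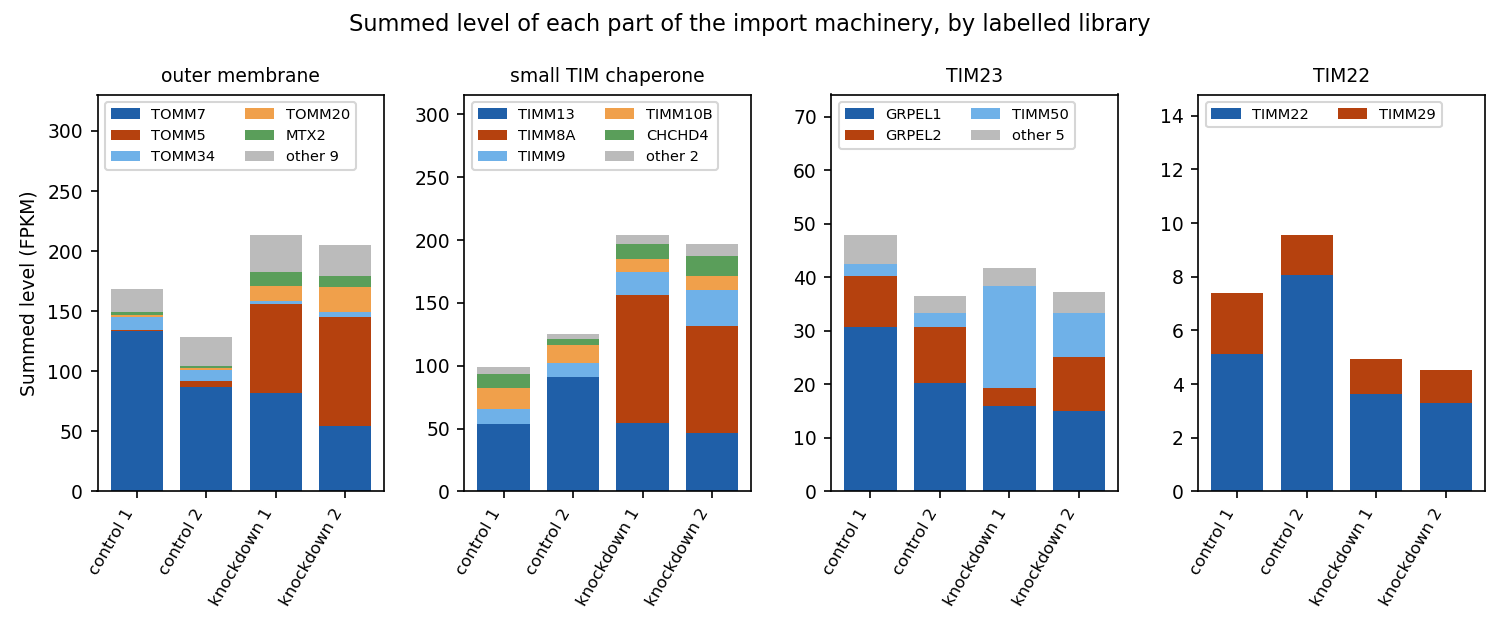
Summed FPKM of 4 groups of import genes in each labelled library, with the largest contributors coloured; axes start at 0 and differ between panels. TOMM5 and TIMM8A are thin or invisible bands under the control label and take large shares in both labelled knockdowns, and the TIM22 bars are lower there.

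Summed levels depended on few genes. The outer membrane genes summed to 168 and 129 FPKM in labelled controls 1 and 2 and to 213 and 205 in labelled knockdowns 1 and 2. Without TOMM5 the sums overlapped, at 167 and 123 FPKM against 139 and 114. Without both TOMM5 and TOMM7, which had the opposite sign, the sums were 33.998 and 36.8 FPKM under the control label and 57.1 and 59.6 under the knockdown label, with no overlap. These last sums still include the called genes TOMM20 and MTX2. With TOMM5, TOMM20 and MTX2 left out, the outer membrane sums were 164 and 121 FPKM under the control label. Under the knockdown label they were 115 and 84.3. The genes left out here are those called higher in this same comparison, so the choice itself pushes the remaining sums lower. TOMM7 alone made up most of these sums, at 133 and 86.6 FPKM against 81.8 and 54.5. Nothing is read from them about the other outer membrane genes. The small TIM group summed to 98.7 and 125 FPKM against 204 and 197. Without TIMM8A the small TIM sums overlapped between the groups, at 98.5 and 125 FPKM against 102 and 112. TOMM7 took 79.2% and 67.3% of the outer membrane sum under the control label and 38.4% in labelled knockdown 1, and TOMM5 led in labelled knockdown 2 with 44.3%. TIM23 and motor genes summed to 47.8 and 36.5 FPKM against 41.8 and 37.3, which overlap. The TIM22 genes summed to 7.41 and 9.54 FPKM against 4.94 and 4.53, lower in both labelled knockdowns.

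In the TIM23 route 0 of 5 tested genes passed, against 5.11% of all tested genes higher and 1.46% lower. At an unadjusted p under 0.05 (limma) 1 was higher and 0 lower, against 14% and 13.9%. The median log2 fold change was -0.35, beside -0.13 over all tested genes. TIMM50, the receptor that takes presequences from TOM (gene ID 100623818, chromosome 6, 48126470 to 48134664), stood at 2.23 and 2.73 FPKM under the control label and at 19.0 and 8.10 under the knockdown label. Both knockdowns were above both controls, and they differed 2.35-fold from each other. The log2 fold change of 1.96 (SE 0.43) lay just short of the threshold (Benjamini-Hochberg adjusted p = 0.0564 by limma), and with TPM it was called (1.86, or 2.25 relative to the median of all genes there, adjusted p = 0.0469). The channel subunit TIMM17B stood at 2.02 and 2.22 FPKM against 1.52 and 1.36, and its paralog TIMM17A was listed at 0 in all 4 libraries. TIMM21, which links the translocase to respiratory complexes, was listed at 1.85 and 0 against 0.541 and 1.60 and fell just under the minimum level.

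GRPEL1 was the most abundant transcript of this route in every library except labelled knockdown 1, where TIMM50 was higher. GRPEL1, a nucleotide exchange factor for the matrix HSP70 that pulls precursors in (gene ID 100622145, chromosome 8, 3797310 to 3813725), stood at 30.7 and 20.2 FPKM under the control label and at 16.0 and 14.999 under the knockdown label. The groups did not overlap, but the log2 fold change of -0.65 (SE 0.31) missed the threshold (Benjamini-Hochberg adjusted p = 0.234 by limma). Its paralog GRPEL2 stood at 9.62 and 10.4 FPKM against 3.38 and 10.2, so that labelled knockdown 1 alone was low. TIMM44, which tethers the motor to the channel, stood at 1.48 and 0.852 FPKM against 1.30 and 0.903, and DNLZ, a helper of the matrix HSP70, was above 0 only in labelled knockdown 2, at 0.146 FPKM.

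Both TIM22 genes had lower levels in both labelled knockdowns, as did 35.8% of all tested genes, and 0 of the 2 passed (limma, also 0 at an unadjusted p under 0.05). TIMM22, the channel that inserts carrier proteins (gene ID 100621364, chromosome 12, 46897580 to 46903210), stood at 5.13 and 8.08 FPKM against 3.62 and 3.29. Its log2 fold change was -0.75 (SE 0.32, Benjamini-Hochberg adjusted p = 0.194 by limma). TIMM29, a TIM22 subunit known from human cells, stood at 2.28 and 1.46 FPKM against 1.32 and 1.24. PMPCB, the catalytic subunit of the peptidase that removes presequences (gene ID 100514358, chromosome 9, 103316161 to 103329653), stood at 5.92 and 9.56 FPKM under the control label and 15.2 and 11.7 under the knockdown label (log2 fold change 0.74, SE 0.33, Benjamini-Hochberg adjusted p = 0.213 by limma). Its partner PMPCA stayed at or under 0.340 FPKM, and TIMMDC1, which carries the family name but assembles complex I, stood at 0.658 to 1.02 FPKM. Neither was tested.

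**Figure D4:**
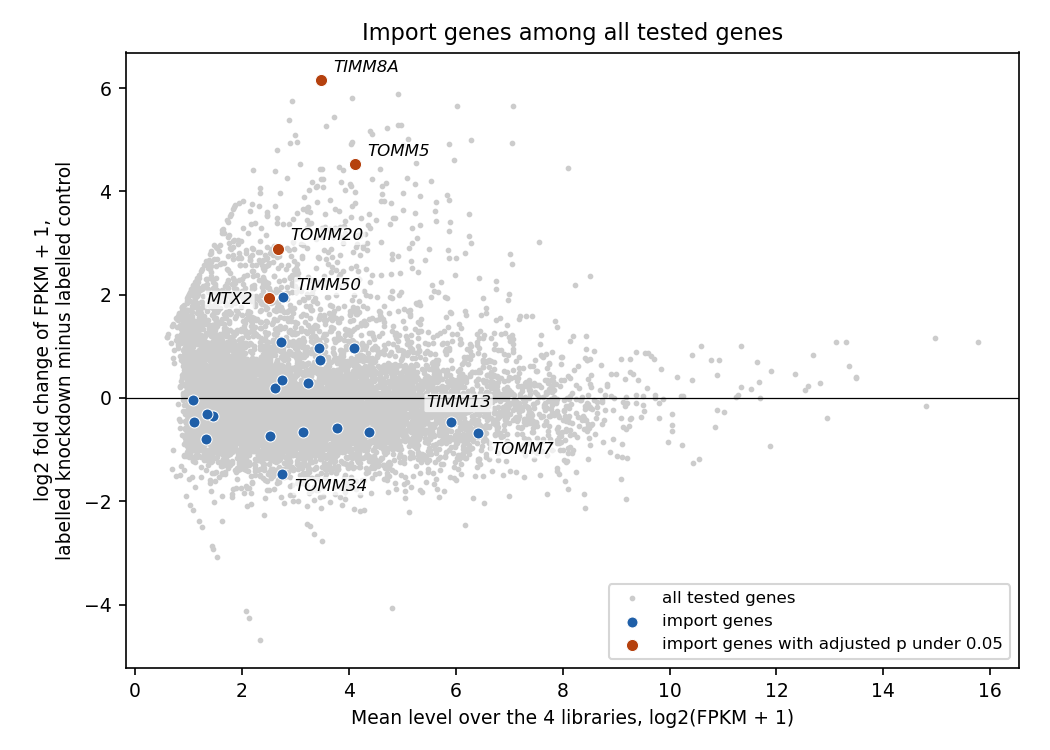
Log2 fold change of FPKM + 1 against mean level for all 9850 tested genes in grey, with the 24 tested import genes in blue and the 4 that passed the threshold in red. TIMM8A lies at 6.15 and entered the fit only through the labelled knockdowns, and TOMM7 and TIMM13 lie below 0 at high levels.

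Replicate libraries differed for the import genes about as much as for other genes. Between the labelled controls the median absolute log2 difference was 0.33 over the 24 tested import genes and 0.30 over all tested genes, and between the labelled knockdowns it was 0.31 and 0.38. On the FPKM + 1 scale TOMM5, TOMM22 and CHCHD4 differed over 2-fold between the labelled controls, and TIMM50 and GRPEL2 between the labelled knockdowns. The 4 calls were all kept when TPM was recomputed without the mitochondrially encoded rows. The part of the mitochondrially encoded rows in the differences was otherwise not tested.

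Of 45 tested genes in 6 lists that work beside the import machinery, 1 was higher and 1 was lower, counts near the 5.11% and 1.46% of all tested genes. At an unadjusted p under 0.05 limma gave 7 higher and 4 lower, against 14% and 13.9% of all tested genes. Of the 45, 22 had a positive and 23 a negative log2 fold change, with a median of -0.018. Over all 9850 tested genes 4179 estimates were positive and 5671 negative. The higher one was NDUFB7, a complex I subunit with paired cysteines of the kind folded through CHCHD4. It was listed at 0 and 0.967 FPKM under the control label and at 22.9 and 7.87 under the knockdown label. Its log2 fold change of 3.38 (SE 0.57) is given as a description. Its control mean was 0.484 FPKM, so NDUFB7 entered the fit only through the labelled knockdowns. PARL, a rhomboid protease of the inner membrane, was lower, at 567 and 437 FPKM against 164 and 208 (log2 fold change -1.43, SE 0.29, adjusted p = 0.048 from limma). Among 6 tested matrix chaperones and motor partners 0 were called (limma, 1 higher and 0 lower at an unadjusted p under 0.05), and HSPA9, the motor HSP70 itself, stood at 52.6 and 58.7 FPKM against 45.7 and 44.0. The 4 tested MICOS genes, which shape the cristae, all had negative estimates and 0 calls (0 higher and 2 lower unadjusted). Among 10 cytosolic chaperones of import 0 were called (2 higher and 0 lower unadjusted), with HSPA8 at 19.7 and 72.4 FPKM against 207 and 181 (adjusted p = 0.0776 from limma). Of 13 tested partners and substrates of oxidative folding, NDUFB7 was the single call (2 higher and 1 lower unadjusted). Of 8 tested presequence and quality proteases PARL was the single call (1 higher and 1 lower unadjusted). Of 4 tested insertion factors 0 were called (1 higher and 0 lower unadjusted). The 13 genes of the mitochondrial genome had 12 positive estimates and 0 calls (4 higher and 0 lower unadjusted), with a median of 0.64.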

How the data were processed

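The submitters' processing notes name StringTie 2.1.7, Bowtie2 2.3.5, cutadapt and the build Sscrofa11.1, with roles, annotation release, filters and strand not given in the sources used here. Libraries came from a SMARTer mRNA kit, per the labels' protocols. The deposited table gives, per transcript and library, coverage (mean read depth per base), FPKM scaled by the authors for length and library size, and TPM scaled by the authors to a fixed sum, per the file headers. Read counts were not used. FPKM was summed per gene, named by RefSeq accession (32816 of 35395 rows) or symbol. Genes averaging 1 FPKM or more entered a limma 3.58.1 fit (R 4.3.3, trend, group only, 2 residual degrees of freedom, two-sided) on log2(FPKM + 1), which understates changes of low genes. The script was tested on simulated data. Values of 0 may be failed estimates. The genes, lists and roles were chosen with earlier results of these data known. Full values were given for called genes and, per role, the most abundant gene and the largest estimate short of the threshold. TOMM22, TOMM70 and the other genes with all 4 values were added after their values were seen.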

Additional observations from a re-analysis of the deposited data

How the results depend on the processing

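With 2 libraries a group, leaving out 1 also takes residual degrees of freedom from the fit. Whether lost calls reflect that or the library left out was not tested. Without labelled knockdown 1 and 2 in turn, the log2 fold change was 6.02 and 6.28 for TIMM8A and 4.67 and 4.38 for TOMM5. It was 3.21 and 2.58 for TOMM20 and 1.82 and 2.04 for MTX2. Leaving out 1 library gave 0 to 479 genes higher and 0 to 47 lower over the table, and 0 to 3 import genes higher. Calls numbered 312 higher and 62 lower under a pseudocount of 0.1, 320 higher under a minimum mean of 5 FPKM and 78 lower under median-ratio scaling, each with the same 4 import calls. TPM gave 452 higher and 268 lower (62.8% of calls higher, against 77.7% with 503 and 144 as reported) and 1 import gene lower, TOMM34. TPM shifted the median of all genes by -0.26 and median-ratio scaling by 0.12. No filter gave 0 and 0 genes (1880 and 1925 at an unadjusted p under 0.05, limma) and 0 import genes. The highest row of each gene gave 120 and 33, and 2 import genes. The labels do not say that replicate numbers pair libraries, and replicate differences correlated at r = -0.14 across genes between the groups. A replicate block gave 125 and 8 genes and 3 import genes, without MTX2 (adjusted p = 0.0625). A block with crossed numbers, added after seeing the data, gave 611 and 119 genes, and 5 import genes higher and 1 lower.

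The median of the tested import genes was 0.083, 0.35 with a minimum mean of 5 FPKM and -0.14 with TPM, or 0.26 above the median of all genes there. The outer membrane median was 0.68 with that minimum. The TIM22 median was -0.53, and -0.68 with a pseudocount of 0.1, -0.75 with a minimum of 5 FPKM, -0.42 with median-ratio scaling, -0.83 with TPM and -0.62 with TPM without mitochondrial rows. Some estimates changed sign: TIMM44 (0.046 with median-ratio scaling, and -0.25 to 0.18 with 1 library left out), MTX3 (-0.039 with TPM) and GRPEL2 (-0.66 as reported, and -1.33 to 0.019 with 1 library left out, the positive value without labelled knockdown 1). The causes were not tested. TOMM40 and TIMM8A in the controls are limited by low depth.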

Other observations

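DNLZ and PMPCA are not placed on a chromosome and were not checked for overlap. Of the other 32 import genes, 11 have a span that overlaps another gene in RefSeq. Their levels may include a neighbour's reads, or lose reads to it, where strand was not used in counting. PQBP1, which overlaps TIMM17B by 202 bases, stood at 0.630 and 1.79 FPKM in labelled controls 1 and 2 and at 6.18 and 4.67 in labelled knockdowns 1 and 2, while TIMM17B had a negative estimate. JOSD1, which overlaps TOMM22 by 562 bases, stood at 4.68 and 4.87 FPKM against 3.81 and 2.39, while TOMM22 had a positive one. YIPF2, which overlaps TIMM29 by 22 bases, also had the opposite sign. Other neighbours shared the sign of the import gene. IL17B, which overlaps GRPEL2 by 6403 bases, stood at 2.09 and 1.02 FPKM against 1.26 and 0.509, and both had negative estimates. PRICKLE4 and TOMM6 were both negative too. The part of neighbours' reads in these levels was not tested. For 9 of the 34 genes the table has fewer rows than RefSeq has transcripts, MTX3 with 1 of 5 and TOMM40L with 1 of 5 among them.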
